A study of Sus scrofa with 12 samples.

Results

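The stage change in porcine muscle satellite cells of the arm labelled CBP, from proliferation (0h) to 60h of differentiation, was described across all genes. It was taken from 6 of the 12 RNA-seq libraries, the 3 of group CBP_0h and the 3 of group CBP_60h. Expression was given as FPKM, read counts scaled to gene length and library depth, and 11636 of the 31908 listed genes reached 1 FPKM in 3 or more of the 12 libraries and were tested. The 2 other groups, WT_0h and WT_60h with 3 libraries each, are control cells at the same stages. They served only to test where the change in CBP cells differed from that in control cells.

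CBP was read as exposure to SGC-CBP30, a compound that occupies the acetyl-lysine pocket (bromodomain) of CBP and p300, because the treatment text names it at 5uM/ml for 48 h in proliferation and 60 h in differentiation. Control samples carry the same text, and the arm is named in a genotype field, so the labels do not settle whether it is a treatment or a genetic change. The control treatment is not stated, nor whether the cells collected at 60h had met the compound before they were moved to differentiation. All 4 groups are labelled as muscle satellite cells from muscle and as cell line C3H, a name more often given to mouse cells, although the libraries are from pig, and as grown in RPMI medium with fetal bovine serum. Nothing in the labels says that the replicates are separate cultures or animals, so p-values measure the spread between these libraries, which may be technical.

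Satellite cells are the stem cells of skeletal muscle. As myoblasts they divide, then leave the cell cycle, switch on the transcription factor MYOG, fuse into myotubes and build sarcomeres, the contractile units of muscle. CBP and p300 acetylate histones and other proteins at enhancers and promoters, and serve as coactivators of the myogenic factors, of interferon and inflammatory transcription factors and of many others.

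The 6 CBP libraries held 16095335 to 19079744 recovered reads. Over tested genes with a mean of 5 FPKM or more in the group, the median coefficient of variation between replicates was 3.94% at 0h and 3.69% at 60h. Genes with lower means are not in these medians. The first 2 principal components of the 12 libraries, with 49.4% and 34.9% of the variance, placed the 3 libraries of each group together. All 8 satellite cell and myoblast markers passed the filter, with a summed level of 734 to 782 FPKM in the CBP libraries at 0h and 1080 to 1190 FPKM at 60h. In control cells the sums were 1730 to 1760 and 1530 to 1690 FPKM. CREBBP, which encodes CBP, was at 9.97 ± 0.186 FPKM at 0h and 14.0 ± 1.01 FPKM at 60h (SD, n = 3), a rise of 0.45 on the log2 scale. EP300, which encodes p300, went from 17.7 ± 0.828 to 19.3 ± 0.0751 FPKM, a rise of 0.12 (limma adjusted p = 0.043). That call was lost without CBP_0h replicate 2 or 3 (limma adjusted p = 0.0637 and 0.165) or CBP_60h replicate 1, 2 or 3, with no filter (0.0714), and with the replicate block (0.0527). These transcript levels do not check the treatment, since the compound acts on the proteins.

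Between 0h and 60h, 8464 genes changed in CBP cells, 72.7% of those tested (limma, adjusted p under 0.05 over all genes). Of these, 3638 rose, which is 31.3% of the genes tested, and 4826 fell, which is 41.5%. A log2 change of at least 1 was reached by 566 of the genes that rose (4.86% of those tested) and 562 of those that fell (4.83%). Changes ran from -4.25 to 6.13 with a median over all genes of -0.06. The split between rises and falls depends on the scaling of the libraries. After median-of-ratios scaling 4225 genes rose and 4161 fell, with the median of all genes shifted up by 0.06, and after scaling to TPM 4557 rose and 3794 fell, with a shift of 0.10. The share of rises among the genes called was 43.0% as deposited, 50.4% by median of ratios and 54.6% by TPM. Unless another setting is named, each log2 change below was computed from FPKM + 1, so for genes with low values it is smaller than the true ratio. Each list's counts are read against the percentages above. Gene positions are RefSeq's for the build Sscrofa11.1.

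In control cells 3351 genes rose (28.8% of those tested) and 4424 fell (38%) between the stages. The 2 arms share no library, and 2218 genes rose in both while 3216 fell in both. The difference of the stage changes, tested in the same model, was higher in CBP cells for 2823 genes (24.3%) and lower for 3104 (26.7%). Among genes called in the same direction in both arms and differing between them, the change was larger in CBP cells for 1838 and smaller for 783. Another 839 genes moved in opposite directions. Across the 11636 genes the 2 stage changes had a Pearson correlation of 0.654, as a description.

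**Figure D1:**
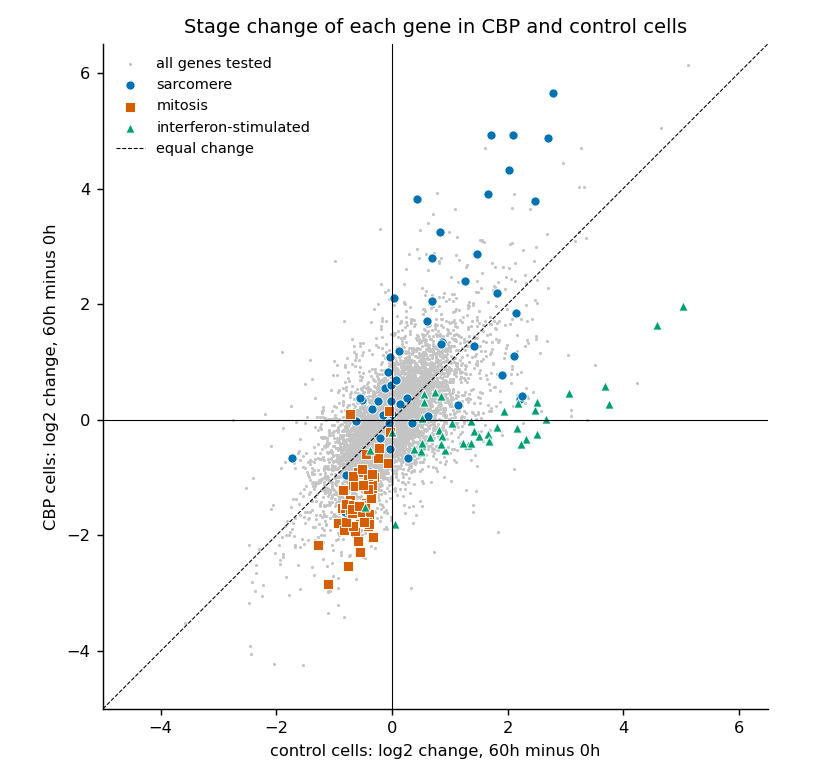
Log2 change from 0h to 60h of each of the 11636 genes in control cells (horizontal axis) and CBP cells (vertical axis), with sarcomere genes (blue circles), mitosis genes (orange squares) and interferon-stimulated genes (green triangles) marked; the dashed line is equal change. Most mitosis genes lie below the dashed line among the falls, the strongly rising sarcomere genes lie above it, and most interferon-stimulated genes spread to the right near 0 on the vertical axis.

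Most genes in a list of myogenic regulators and muscle lineage markers rose in CBP cells, MYOG by the most. The list also holds surface proteins such as CDH15, ITGA7 and NCAM1, which are counted among the satellite cell markers too. Of its 26 tested members, 17 rose and 7 fell, with a median log2 change of 0.40. MYOG (ENSSSCG00000034654, chromosome 9, 113783233 to 113785312), the transcription factor that drives terminal differentiation, was at 29.7, 27.9 and 28.0 FPKM in the 3 libraries at 0h and at 449, 438 and 457 FPKM at 60h. Every library at 60h was far above every library at 0h. The rise was 15.7-fold (log2 change 3.93, SE 0.032, limma adjusted p = 2.25e-15). In control cells MYOG started at 343 FPKM and ended at 589 FPKM, so the CBP cells ended above the 0h level of the controls and below their 60h level. The stage change of MYOG was 3.15 higher in CBP cells on the log2 scale (SE 0.045, limma adjusted p = 8.92e-13).

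Of the other members of this list that moved most, MSTN and SOX8 did not rise in control cells. MSTN, the secreted brake on muscle growth, was at 3.51, 3.18 and 3.20 FPKM at 0h and at 22.3, 19.9 and 20.7 FPKM at 60h. The groups do not overlap, and the rise was 6.37-fold, while control cells fell from 5.96 to 5.07 FPKM. SOX8, a transcription factor found in satellite cells, rose 4.55-fold, from 5.22 ± 0.637 to 23.8 ± 1.62 FPKM (SD, n = 3), and HEYL, a target of Notch signalling, rose 15.4-fold, from 0.775 ± 0.0751 to 11.9 ± 1.42 FPKM. SMYD1, a methyltransferase needed for sarcomere assembly, rose 8.46-fold but reached only 4.08 FPKM, against 20.8 FPKM in control cells at 60h.

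The early markers of the lineage were split. PAX7 (chromosome 6, 77160827 to 77268626), the marker of satellite cells, was at 9.02, 8.56 and 9.04 FPKM at 0h and at 13.0, 10.99 and 12.9 FPKM at 60h. It rose in CBP cells by 0.42 on the log2 scale (SE 0.053, limma adjusted p = 1.46e-05) and fell in control cells by 0.85, and the difference of 1.27 was called (limma adjusted p = 6.94e-08). MYOD1, the founding factor of myoblast identity, went down 2.04-fold in CBP cells, from 6.62 ± 0.75 to 3.24 ± 0.194 FPKM (SD, n = 3). In control cells MYOD1 fell further, from 22.3 to 5.19 FPKM. Its stage change was 1.07 higher in CBP cells on the log2 scale (limma adjusted p = 1.9e-05). MYF5, a factor of proliferating myoblasts, fell by 0.17 (limma adjusted p = 0.00349), but the call was lost after TPM scaling (log2 change -0.06, limma adjusted p = 0.263). For 23 of the 26 members of the myogenic list the stage change was higher in CBP than in control cells and for 2 it was lower. At 0h 25 of the 26 had a lower mean in CBP cells than in control cells, and at 60h 14 of them did.

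**Figure D2:**
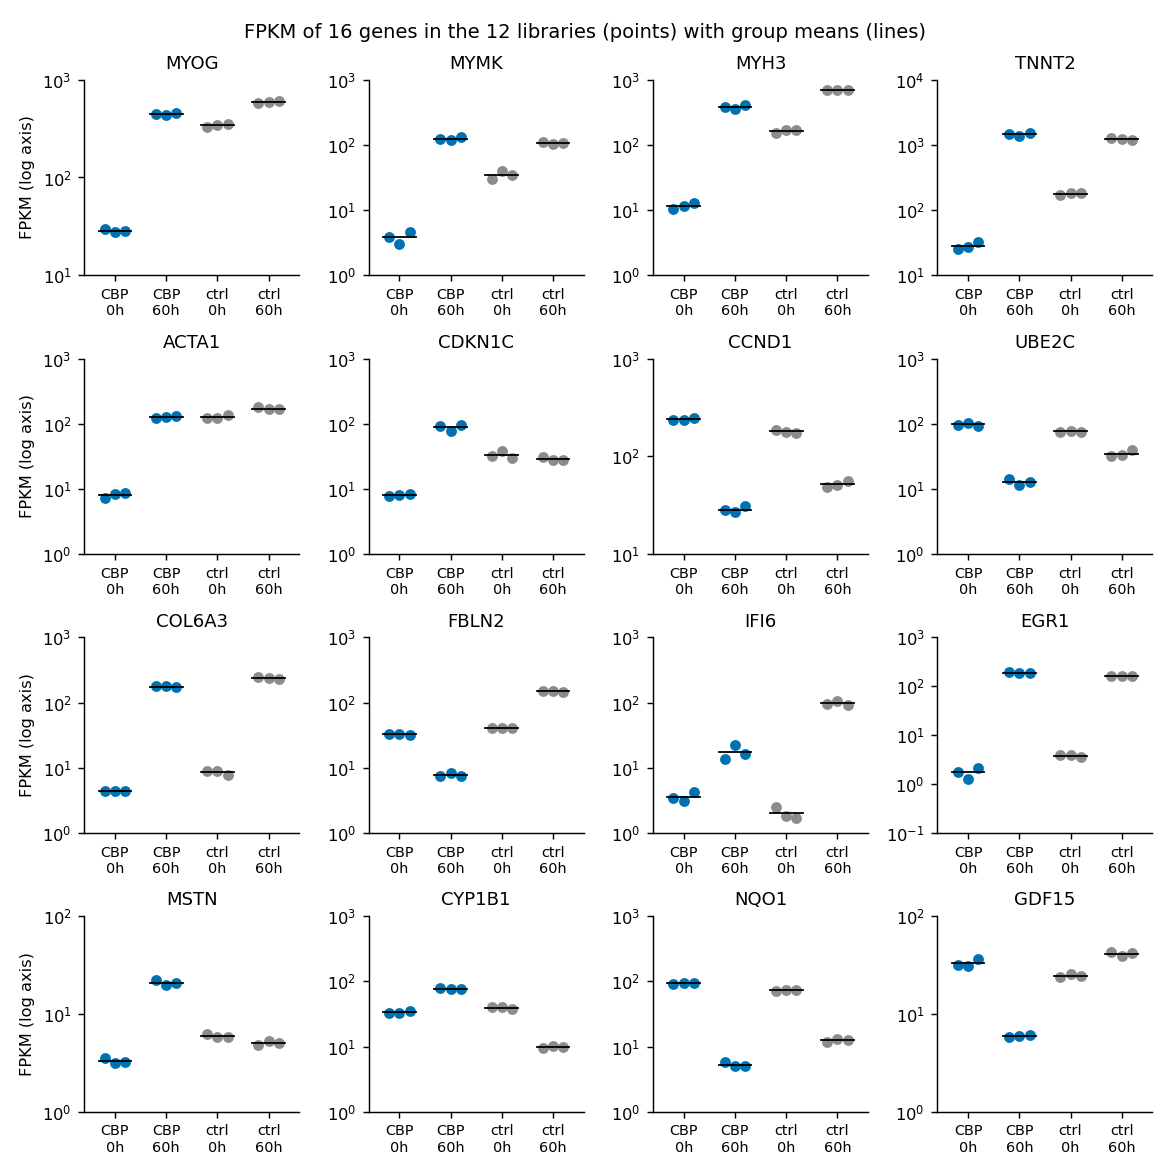
FPKM (log axis) of 16 genes in each of the 12 libraries (points; blue for CBP cells, grey for control cells) with the mean of each group as a line. MYOG, MYH3, TNNT2 and ACTA1 start far lower in CBP than in control cells and rise to near or above the control level at 0h, whereas FBLN2 and GDF15 fall in CBP cells and rise in control cells.

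Most sarcomere genes rose, and embryonic and neonatal isoforms were among the 5 largest rises. Of 51 tested members, 39 rose and 7 fell, with a median log2 change of 0.69, and the counts were the same after median-of-ratios and TPM scaling. TNNT2 (ENSSSCG00000023031, chromosome 10, 23749528 to 23759696), the cardiac troponin T that developing skeletal muscle also makes, was at 25.7, 26.7 and 31.9 FPKM at 0h and at 1470, 1382 and 1523 FPKM at 60h. The rise was 51.9-fold (log2 change 5.65, SE 0.067, limma adjusted p = 1.61e-14), with no overlap between the stages. MYH3, the embryonic myosin heavy chain, went from 10.5, 11.5 and 12.6 FPKM to 384, 353 and 407 FPKM, a 33.1-fold rise (log2 change 4.93, SE 0.065). The neonatal chain MYH8 went from 2.69, 3.26 and 2.81 FPKM to 119, 108 and 126 FPKM, a 40.4-fold rise. At 60h MYH8 stood above its control level of 49.9 FPKM, while MYH3 stood below its control level of 697 FPKM. Skeletal myosin heavy chain genes lie side by side and are alike in sequence, so reads could be split between them.

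Skeletal actin ACTA1 (chromosome 14, 60412651 to 60415687), the main actin of the adult thin filament, was at 7.33, 8.42 and 8.55 FPKM at 0h and at 122, 128 and 133 FPKM at 60h. This 15.8-fold rise brought it to the level of control cells at 0h, 127 FPKM, where the controls went on to 170 FPKM. The embryonic light chain MYL4 rose 45.0-fold, from 1.82 ± 0.12 to 81.9 ± 3.61 FPKM, and the Z-disc crosslinker ACTN2 61.1-fold, from 0.465 ± 0.051 to 28.4 ± 1.23 FPKM (SD, n = 3). Desmin, DES, the intermediate filament of muscle, rose 1.61-fold to 342 FPKM and stayed below the 831 FPKM of control cells. TNNT3, the fast troponin T, went from 0.0116 to 1.16 FPKM, and the muscle creatine kinase CKM from 0.104 to 4.44 FPKM.

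The stage change was higher in CBP than in control cells for 33 of the 51 sarcomere genes and lower for 13, or 36 and 6 by limma voom on recovered reads. Of the 51, 48 had a lower mean in CBP cells at 0h and 44 still had at 60h. The filter let 3 of the 51 in only through the control libraries at 60h and 1 only through the CBP libraries at 60h, so the counts do not treat those 4 evenly. Summed over the list, sarcomere genes took 0.816% to 0.852% of the reads in CBP libraries at 0h and 1.92% to 2.09% at 60h. Control libraries held 2.26% to 2.33% at 0h and 2.89% to 2.99% at 60h, so the ranges of CBP cells at 60h and control cells at 0h lie close together without overlapping. In bulk RNA, more cells that express such a gene and more of its RNA per cell cannot be told apart.

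Genes of fusion, calcium handling and energy supply were split between rises and falls. MYMK (ENSSSCG00000022891, chromosome 1, 273101674 to 273111721), the membrane protein that drives myoblast fusion, was at 3.79, 3.06 and 4.57 FPKM at 0h and at 123, 118 and 130 FPKM at 60h. It rose 32.5-fold (log2 change 4.71, SE 0.109, limma adjusted p = 3.71e-12) to a level above the 107 FPKM of control cells. Of the 24 tested fusion genes 9 rose and 12 fell, and the sign of their median (-0.01) turned with scaling. The muscle caveolin CAV3 rose 12.4-fold and the cadherin CDH15 3.50-fold, and NINJ1, an adhesion protein, fell by 1.17 on the log2 scale. Among 29 genes of excitation-contraction coupling and the acetylcholine receptor 12 rose and 10 fell. The fast calcium pump ATP2A1 rose from 0.254 to 4.47 FPKM and the receptor subunit CHRNA1 4.17-fold, from 47.0 to 196 FPKM. JSRP1, a protein of the junction between the calcium store and the surface membrane, fell by 1.71 on the log2 scale (change in control cells -1.68). Of 19 muscle energy isoenzymes 4 rose and 11 fell. The muscle enolase ENO3 fell 5.20-fold, from 109 ± 4.36 to 21.0 ± 0.805 FPKM (SD, n = 3), and in control cells from 158 to 42.0 FPKM. The pyruvate kinase PKM fell by 0.91 in CBP cells.

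Genes of mitosis fell almost as a block. Of 59 tested members, 57 fell and 1 rose, with a median log2 change of -1.48, against a median of -0.57 in control cells, where 56 fell. The gene that rose was the cell cycle phosphatase CDC25B, by 0.11, named after its value was seen (limma adjusted p = 0.0325). Without CBP_60h replicate 3 its change was 0.06 (limma adjusted p = 0.151), and the call was also lost without CBP_0h replicate 1 or 2 or CBP_60h replicate 1, with no filter and with only the 6 CBP libraries in the model. UBE2C (ENSSSCG00000007423, chromosome 17, 48018403 to 48021542), the ubiquitin-conjugating enzyme of mitotic exit, was at 97.0, 103 and 93.5 FPKM at 0h and at 14.3, 11.3 and 12.8 FPKM at 60h. All 3 libraries at 60h were below all 3 at 0h, a 7.63-fold fall (log2 -2.84, SE 0.084) with a limma adjusted p of 2.95e-11. The mitotic cyclin CCNB1 fell 6.26-fold, from 61.6 ± 3.58 to 9.85 ± 0.379 FPKM, the kinesin KIF20A 5.58-fold and CDC20, the activator of the anaphase ligase, 5.26-fold. The stage change was lower in CBP cells for 55 of the 59 and higher for 1. All but 1 of the 59 had a mean at 0h that was not below that of control cells, and 44 were below it at 60h. The list took 0.441% to 0.46% of reads at 0h and 0.156% to 0.165% at 60h in CBP cells.

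DNA replication genes fell by less. Of 50 tested, 41 fell and 1 rose, with a median of -0.30, and after TPM scaling 32 fell and 5 rose. Median-of-ratios scaling left 35 falls and 5 rises. The largest fall was that of thymidylate synthase, TYMS, which supplies thymidine for DNA, from 81.0 ± 5.60 to 17.9 ± 1.41 FPKM (SD, n = 3). The stage change was lower than in control cells for 16 of the 50 and higher for 2. Only 4 of the 50 had a lower mean in CBP than in control cells at 60h, against 44 of the 59 mitosis genes.

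The inhibitors and drivers of the cycle moved singly. CDKN1C (ENSSSCG00000040461, chromosome 2, 2019391 to 2022092), the kinase inhibitor p57 of quiescent and differentiating muscle cells, was at 7.74, 7.96 and 8.35 FPKM at 0h and at 93.3, 76.9 and 94.9 FPKM at 60h. It rose 11.02-fold (log2 change 3.30, SE 0.092, limma adjusted p = 1.66e-11). Control cells, at 33.4 and 28.8 FPKM, lay between those levels at both stages, and the difference of the stage changes was 3.51 (SE 0.13). CDKN1A, the inhibitor p21, was high and level, at 608 ± 25.5 FPKM at 0h and 579 ± 4.04 FPKM at 60h (SD, n = 3). Its log2 change of -0.07 did not pass (limma adjusted p = 0.116) and its sign turned with scaling. Cyclin CCND1 (chromosome 2, 3621242 to 3633380), which drives entry into the cycle, fell from 237, 234 and 245 FPKM to 27.9, 27.0 and 30.7 FPKM. The fall was 8.37-fold, and by 1.24 on the log2 scale more than in control cells. BTG1, an antiproliferative factor, rose 3.16-fold. MYC, the growth regulator, rose 1.88-fold, from 21.7 ± 0.204 to 40.7 ± 1.24 FPKM.

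Genes of protein synthesis and respiration fell widely by small steps. Of 50 tested cytosolic ribosomal protein genes 49 fell and none rose, with a median of -0.63 (-0.60 in control cells), and the stage change was higher in CBP cells for 3 and lower for 8. Ribosomal protein genes have many near copies in the genome, so single genes are uncertain. They took 4.76% to 5.12% of reads in CBP cells at 0h and 3.16% to 3.30% at 60h. Of 33 tested genes of the nucleolus and ribosome assembly 20 fell and 3 rose in CBP cells (18 and 6 after TPM scaling), while in control cells 5 fell and 14 rose. The difference was lower in CBP cells for 27 and higher for none. LYAR, a nucleolar growth factor, and the nucleolar GTPase GNL3 fell by 0.75 and 0.63 on the log2 scale.

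Of 48 nuclear genes of oxidative phosphorylation 47 fell and none rose, with a median of -0.46. In control cells 44 of them fell and none rose, with a median of -0.35. The stage change was lower in CBP cells for 16 of the 48, and for 32 the difference was not called. Of 13 transcripts encoded in mitochondria 10 fell and 1 rose, with a median of -0.40, whereas 10 of the 13 rose in control cells. CYTB (chromosome MT, 15342 to 16481), which encodes cytochrome b, fell from 1666 ± 59.6 to 1011 ± 9.81 FPKM (SD, n = 3) in CBP cells and went from 1046 to 1239 FPKM in control cells. The difference of the stage changes was -0.96 (SE 0.046, limma adjusted p = 1.46e-08). For 10 of the 13 the stage change was lower in CBP cells and for none higher. At 0h 12 of the 13 had a mean in CBP cells that was not below that of control cells. Their share of reads in CBP libraries went from 4.03% to 4.35% at 0h down to 3.31% to 3.37% at 60h. In control libraries it was 3.63% to 3.79% at 0h and 3.44% to 3.62% at 60h. COX1, the member with the highest level, changed by -0.30 on the log2 scale in CBP cells and by -0.41 in control cells. Its difference of 0.11 did not pass (limma adjusted p = 0.13).

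**Figure D3:**
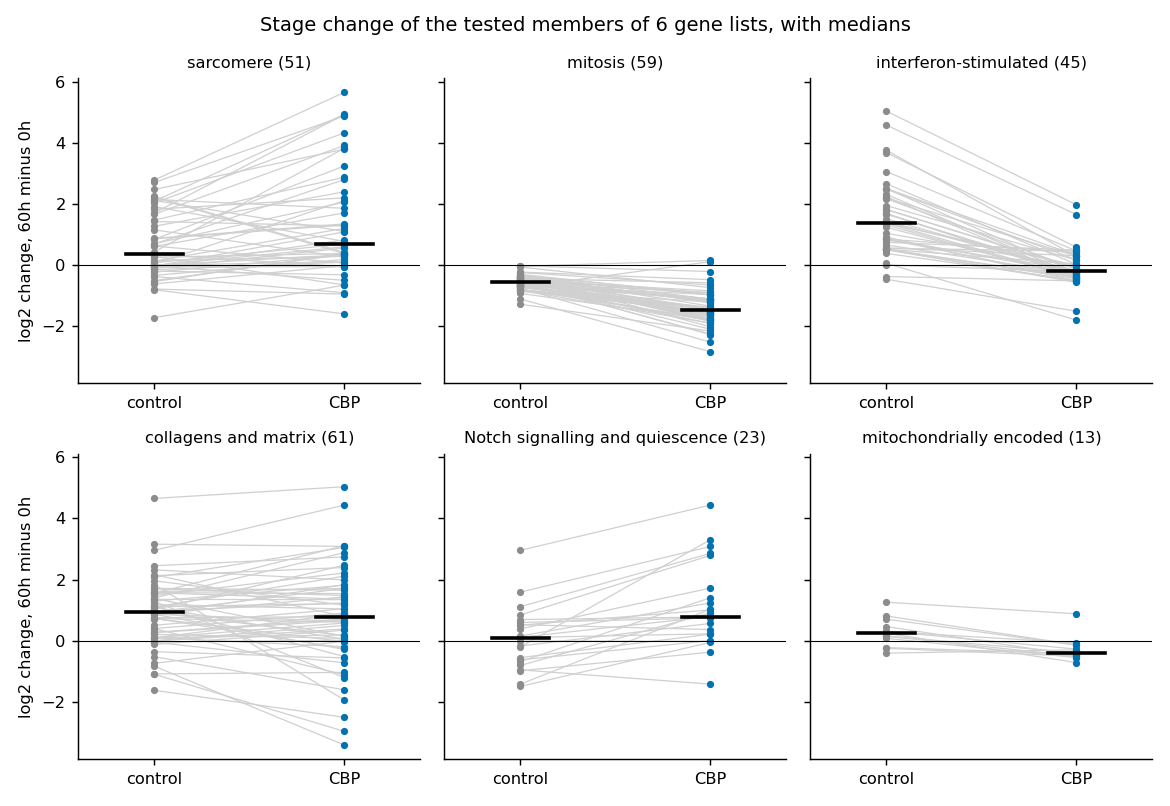
Log2 change from 0h to 60h of each tested member of 6 gene lists in control cells (grey) and CBP cells (blue), with a grey line joining the values of a gene and a black bar at each median. Most lines of the mitosis, interferon-stimulated and mitochondrially encoded genes run down from control to CBP cells, and those of most sarcomere and Notch genes run up.

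Most collagens and other matrix genes rose. Of 61 tested members 41 rose and 13 fell, with a median of 0.78 (0.92 in control cells, where 46 rose and 7 fell). COL6A3 (ENSSSCG00000027331, chromosome 15, 137011549 to 137103687), a chain of the collagen that links cells to the basement membrane, went from 4.32, 4.42 and 4.45 FPKM to 177, 178 and 175 FPKM. The rise was 40.2-fold (log2 change 5.04, SE 0.045, limma adjusted p = 3.34e-15). It was close to that of control cells, though the difference of 0.38 was called. COL5A3, a minor fibrillar chain, rose 39.6-fold to 45.8 FPKM. The basement membrane chain COL4A1 rose from 109, 118 and 113 FPKM to 957, 1026 and 977 FPKM and passed the control level at 60h, 503 FPKM. COL1A1, the main chain of fibrillar collagen, rose 5.27-fold to 1551 ± 76.1 FPKM (SD, n = 3), below the 2854 FPKM of control cells. Matrix genes took 3.83% to 3.96% of reads in CBP cells at 0h and 7.42% to 7.86% at 60h.

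The largest fall among the 61 matrix genes was that of LTBP2 (chromosome 7, 97744974 to 97852848), a microfibril protein, from 204, 190 and 205 FPKM to 16.6, 18.5 and 18.2 FPKM. The ratio was 11.2 (log2 -3.42, SE 0.042, limma adjusted p = 2.21e-14), whereas control cells kept 116 FPKM at 60h. Fibromodulin, FMOD, which binds collagen fibrils, fell 7.96-fold, from 529 ± 20.3 to 66.6 ± 0.86 FPKM. FBLN2 (ENSSSCG00000011609, chromosome 13, 70757255 to 70830430), a glycoprotein of elastic fibres and basement membranes, was at 32.4, 32.9 and 31.8 FPKM at 0h and at 7.39, 8.26 and 7.36 FPKM at 60h, while control cells rose from 40.9 to 148 FPKM. Its difference of -3.78 (SE 0.054, limma adjusted p = 8.92e-13) was the lowest among the genes the naming rule took. Elastin, ELN, also parted, with a fall from 2.92 to 1.73 FPKM in CBP cells and a rise from 53.5 to 117 FPKM in control cells. In the list as a whole the stage change was higher in CBP cells for 25 and lower for 23, and 1 of the 61 passed the filter only through the CBP libraries at 60h.

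Matrix proteases and their inhibitors rose in 20 of 27 cases and fell in 5, with a median of 0.84. Stromelysin MMP3 went from 0.043, 0.0854 and 0.196 FPKM to 17.7, 19.4 and 14.4 FPKM. The gelatinase MMP2 rose 4.61-fold, from 124 ± 1.44 to 570 ± 43.4 FPKM (SD, n = 3), and the lysosomal protease CTSB 3.70-fold. Markers of fibroblasts and fibro-adipogenic cells moved beside the matrix genes. All 18 were matched, 15 were tested, 10 rose and 3 fell, and their summed level went from 615 to 634 FPKM at 0h to 2640 to 2890 FPKM at 60h in CBP cells (1210 to 1260 and 4090 to 4230 FPKM in control cells). COL1A1 and COL3A1, which are also matrix genes of this list, make up most of that sum. PDGFRA, a defining receptor of these cells, went from 2.38 to 20.8 FPKM, and CD34 had a mean under 1 FPKM in every group. Other tested markers had lower means at 60h in CBP cells: DPT (2.00 to 0.666 FPKM), DPP4 (1.98 to 1.04), OSR1 (1.75 to 0.695) and TCF21 (1.23 to 0.986). In control cells the means of DPT (2.59 to 14.5 FPKM) and TCF21 (0.74 to 2.69) were higher at 60h, and those of DPP4 and OSR1 lower. Smooth muscle and pericyte markers rose in 10 of 14 tested cases and fell in 4, with sums of 1920 to 2000 FPKM at 0h and 3290 to 3490 FPKM at 60h. The part of such cells in these results was not tested.

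Interferon-stimulated genes had a small and mixed stage change in CBP cells. Of 45 tested members 10 rose and 22 fell, with a median of -0.22, while in control cells 41 rose and 2 fell, with a median of 1.37. Control libraries at 60h alone brought 5 of the 45 through the filter, so these had to differ. IFI6 (ENSSSCG00000034570, chromosome 6, 84852782 to 84858072), an interferon-induced mitochondrial protein, was at 3.44, 3.14 and 4.17 FPKM at 0h and at 13.4, 22.3 and 15.97 FPKM at 60h. It rose by 1.97 on the log2 scale (SE 0.156, limma adjusted p = 2.27e-07), and control cells went from 2.00 to 97.1 FPKM. The ubiquitin-like modifier ISG15 rose 3.55-fold in CBP cells, from 4.04 ± 1.59 to 14.3 ± 1.74 FPKM (SD, n = 3), and ended at 89.3 FPKM in control cells. MX1, an antiviral GTPase, rose by 0.58.

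Other members fell or did not pass. The immunoproteasome subunit PSMB8 fell 5.35-fold, from 7.17, 7.36 and 7.04 FPKM to 1.39, 1.44 and 1.20 FPKM, and control cells stood at 6.61 and 6.90 FPKM. IFI35 fell by 1.52 on the log2 scale. RSAD2, an antiviral radical enzyme, was at 0.0592, 0.118 and 0.876 FPKM at 0h and at 0.740, 0.210 and 0.872 FPKM at 60h, ranges that overlap (limma adjusted p = 0.233), and at 13.1 FPKM in control cells at 60h. Without CBP_0h replicate 3, its highest library at 0h, RSAD2 rose by 0.54 (limma adjusted p = 0.00744), and by limma voom on recovered reads by 1.48 (adjusted p = 0.0482). For 42 of the 45 the stage change was lower in CBP cells, and for none was it higher. At 0h 5 of the 45 had a lower mean in CBP cells than in control cells, and at 60h 43 did. Immune cell markers were low beside them. All 10 were matched, 2 were tested, CD3E and LYZ were at 0 in all 6 CBP libraries, and the summed level was 6.57 to 8.12 FPKM at 0h and 4.06 to 4.43 FPKM at 60h (6.25 to 6.63 and 4.17 to 5.10 FPKM in control cells).

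Of 32 inflammatory and NF-kB target genes 20 rose and 7 fell, with a median of 0.38 (1.00 in control cells). The adhesion molecule VCAM1 rose 11.6-fold, from 2.25, 2.24 and 2.59 FPKM to 27.5, 28.7 and 26.2 FPKM, and the transcription factor CEBPD rose by 2.38 on the log2 scale. The alarm cytokine IL33 fell 8.23-fold and the growth factor of macrophages CSF1 fell 4.05-fold, from 151 ± 2.35 to 37.3 ± 0.353 FPKM (SD, n = 3). The chemokine CCL5 was at 0.491 FPKM at 0h and 0.562 FPKM at 60h and did not pass (limma adjusted p = 0.56), against 12.4 FPKM in control cells at 60h. The difference of the stage changes was lower in CBP cells for 23 of the 32 genes and higher for 5. Of the 32, 2 passed the filter only through the control libraries at 60h and 1 only through the CBP libraries at 60h, so these had to differ.

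Most immediate early genes, which respond within minutes to growth factors and serum, rose. Of 33 tested 24 rose and 5 fell, with a median of 0.60. EGR1 (ENSSSCG00000014336, chromosome 2, 140440829 to 140445302), a zinc finger transcription factor, went from 1.79, 1.29 and 2.14 FPKM to 196, 187 and 187 FPKM. This was the largest log2 change in CBP cells (6.13, SE 0.085, limma adjusted p = 5.77e-14), a 109-fold rise, and control cells rose from 3.73 to 164 FPKM. EGR2 went from 0.0374, 0.0743 and 0.0639 FPKM to 16.4, 17.4 and 15.3 FPKM, and FOS, a component of the AP-1 factor, 37.9-fold from 0.45 to 17.1 FPKM. EGR3 was read by 3 reads over the 3 libraries at 0h and 1011 at 60h. For 19 of the 33 the stage change was higher in CBP cells, and for 5 it was lower. MMP3, KCNE5, EGR2, CCL11, EGR3 and RGS5 were under 0.5 FPKM in all 3 CBP libraries at 0h and at 5 FPKM or more in all 3 at 60h, and no other gene was. Of these 6, 4 were also under 0.5 FPKM in all 3 control libraries at 0h. In all 3 control libraries at 60h, 3 of the 6 were at 5 FPKM or more.

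Of 23 genes of Notch signalling and quiescence 18 rose and 2 fell, with a median of 0.79, against 0.10 in control cells, where 10 rose and 8 fell. Notch is known to hold satellite cells in the stem state, and whether the cells were in such a state was not tested. VCAM1, CDKN1C, HEYL and COL5A3, which are also in this list, are among the largest rises of the list. In control cells COL5A3, VCAM1 and HEYL changed by 2.96, 1.59 and 1.11 on the log2 scale, and CDKN1C by -0.20. HES6, a partner of Notch target proteins, rose from 8.65, 7.77 and 9.07 FPKM to 65.3, 59.6 and 69.4 FPKM. The stage change was higher in CBP cells for 17 of the 23 and lower for 1, and the means of CBP cells were below those of control cells for 16 at 0h and for 3 at 60h. FGFR4 (ENSSSCG00000014047), a growth factor receptor of myoblasts, went from 21.9, 21.4 and 22.9 FPKM to 47.5, 43.4 and 47.6 FPKM in CBP cells and from 53.2 to 19.2 FPKM in control cells. Its stage changes of 1.03 and -1.43 had opposite signs.

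Among 37 genes of BMP and TGF-beta signalling 22 rose and 10 fell. The matrix protein TGFBI rose 19.1-fold, from 3.44 ± 0.403 to 65.8 ± 5.29 FPKM (SD, n = 3), and FSTL1, a secreted follistatin-like protein, rose by 2.27 on the log2 scale. The ID proteins hold back myogenic factors by binding their partners. ID3 fell 1.82-fold in CBP cells, from 427 to 235 FPKM (log2 change -0.86, against -1.10 in control cells). ID2 fell by 0.10 on the log2 scale in CBP cells, a change whose sign turned after TPM scaling (0.01). The call of ID2 (limma adjusted p = 0.0478) was also lost without CBP_0h replicate 1 or 2 or CBP_60h replicate 2 or 3, after median-of-ratios scaling, with no filter, by voom, and with the replicate block (limma adjusted p = 0.0732). ID1 did not pass, at 57.8, 52.8 and 76.1 FPKM at 0h and 58.1, 61.8 and 53.6 FPKM at 60h (limma adjusted p = 0.695), while control cells went from 34.9 to 17.0 FPKM. GDF15 (chromosome 2, 59409035 to 59411356), a stress-induced cytokine, fell 5.54-fold in CBP cells, from 31.5, 31.0 and 36.7 FPKM to 5.81, 5.92 and 6.17 FPKM, and rose from 24.7 to 41.6 FPKM in control cells. Of 15 insulin-like growth factor genes 8 rose and 7 fell, and the falls dropped to 4 after median-of-ratios and 3 after TPM scaling. IGFBP2, a binding protein of these factors, rose 2.78-fold to 624 FPKM with control cells at 148 and 151 FPKM. IGFBP5, a binding protein made by differentiating myoblasts, fell 4.30-fold, from 96.7 to 22.5 FPKM, and in control cells from 387 to 131 FPKM.

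Stress and metabolic programmes differed in how far the arms parted. Of 37 ATF4 targets and aminoacyl-tRNA synthetases 32 fell and 2 rose in CBP cells, with a median of -0.44, while 11 fell and 17 rose in control cells, and the stage change was lower in CBP cells for 32. CTH, an enzyme of cysteine synthesis, fell from 32.1, 31.0 and 32.3 FPKM to 10.96, 10.5 and 10.3 FPKM, and went from 31.6 to 40.9 FPKM in control cells. CBS, the enzyme before it in that pathway, fell 9.20-fold. NUPR1, a stress-induced chromatin protein, went the other way, from 30.1, 30.9 and 27.1 FPKM to 348, 423 and 364 FPKM, a 12.9-fold rise. Of 23 chaperones and unfolded protein response genes of the endoplasmic reticulum 19 rose and none fell, with a median of 0.62 (0.64 in control cells). HSP90B1, a chaperone of that compartment, rose by 1.25 and the transcription factor CREB3L2 by 1.54 on the log2 scale.

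Of 33 genes of sterol and fatty acid synthesis 30 rose and 3 fell, with a median of 0.80 that equalled the one in control cells, and the difference was called higher for 7 and lower for 10. HMGCS1, an early enzyme of cholesterol synthesis, rose from 33.7, 37.5 and 35.2 FPKM to 99.7, 101 and 92.5 FPKM, a log2 change of 1.44 against 1.41 in control cells (difference 0.03, SE 0.068, limma adjusted p = 0.748). Targets of NRF2 and of the aryl hydrocarbon receptor, which defend against oxidants and foreign compounds, fell in 19 of 26 cases and rose in 5, with a median of -1.14 (-0.83 in control cells). NQO1 (ENSSSCG00000002754, chromosome 6, 17292962 to 17302593), a quinone reductase, fell 17.7-fold, from 92.2, 94.8 and 93.2 FPKM to 5.82, 5.01 and 4.99 FPKM. GCLC, the first enzyme of glutathione synthesis, fell 7.74-fold. CYP1A1, the classic target of the aryl hydrocarbon receptor, fell 14.4-fold, with a difference between arms of 0.06 that did not pass (limma adjusted p = 0.641). It was called higher in CBP cells after TPM scaling (0.34, limma adjusted p = 0.0375) and with a pseudocount of 0.1 (0.44, limma adjusted p = 0.0176). By limma voom on recovered reads it was 0.49 (adjusted p = 0.0203). CYP1B1 rose in CBP cells, unlike CYP1A1, from 32.8, 33.1 and 34.8 FPKM at 0h to 78.0, 75.6 and 76.4 FPKM at 60h. Control cells held 39.3 and 9.76 FPKM of CYP1B1 (difference 3.07, SE 0.057, limma adjusted p = 1.02e-11).

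Genes that write, remove or read acetylation mostly shifted by small amounts. Of 55 acetyltransferases, deacetylases and bromodomain proteins 26 rose and 14 fell, with a median of 0.09. A log2 change of at least 1 was reached by 1 of the rises and 1 of the falls. The counts went to 30 rises and 11 falls after median-of-ratios scaling, and to 34 and 9 after TPM scaling. HDAC1, a class I deacetylase, fell 2.05-fold, from 49.8, 48.4 and 47.8 FPKM to 23.6, 23.4 and 24.3 FPKM, while control cells went from 29.2 to 26.9 FPKM. CECR2, a bromodomain protein, rose by 1.23 and the coactivator NCOA1 by 0.96 on the log2 scale. The stage change was higher in CBP cells for 26 of the 55, CREBBP among them (by 0.38), and lower for 4. For EP300 the difference did not pass (limma adjusted p = 0.96).

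**Figure D4:**
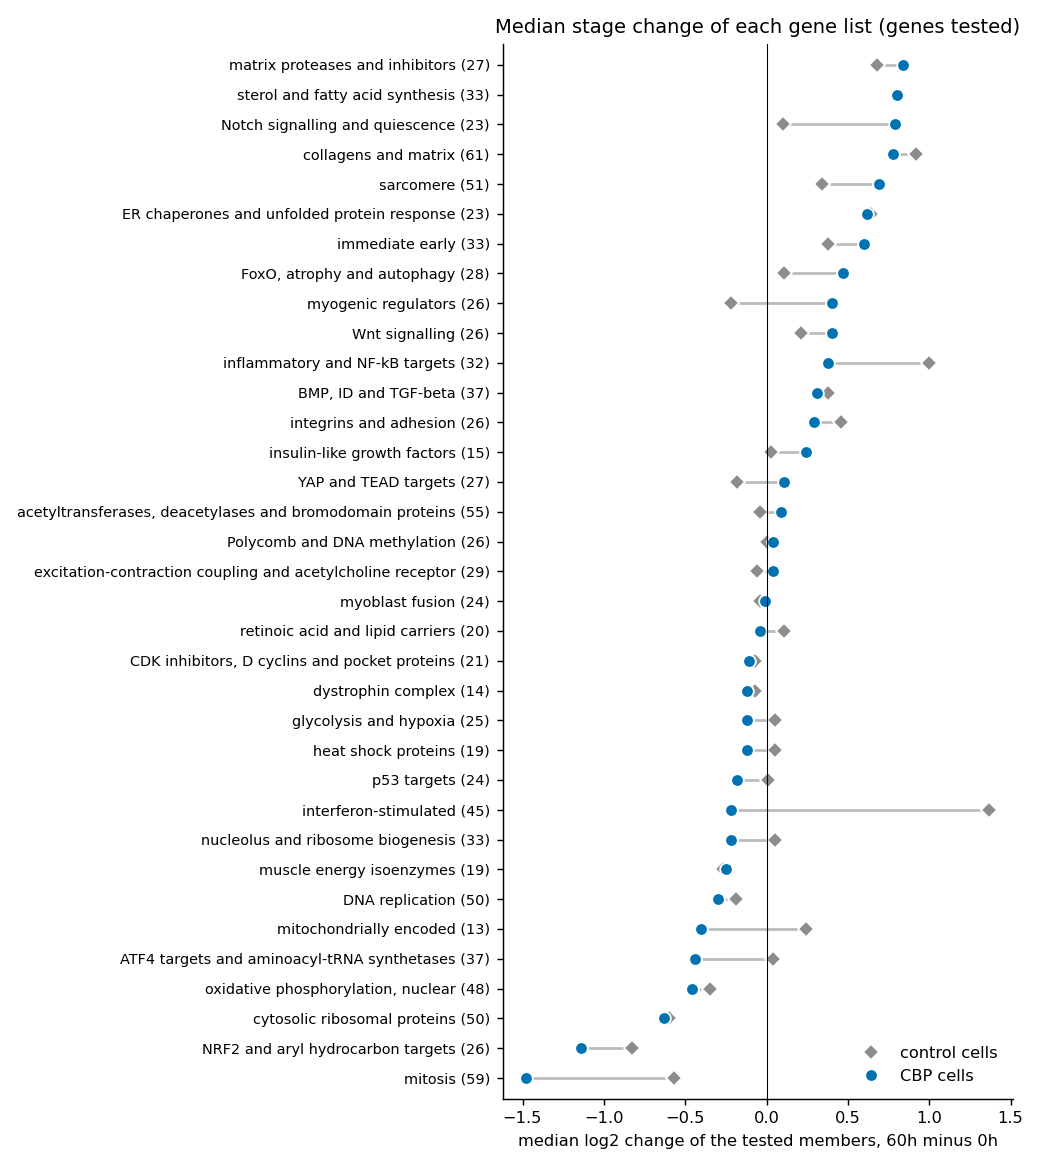
Median log2 change from 0h to 60h of the tested members of 35 gene lists in CBP cells (blue circles) and control cells (grey diamonds), ordered by the CBP value, with the number of genes tested in brackets. The lists lie between -1.48 (mitosis) and 0.84 (matrix proteases and inhibitors) in CBP cells, and the interferon-stimulated genes have the widest gap between the arms.

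The remaining large falls were in genes of varied function. FGF19 (ENSSSCG00000012871, chromosome 2, 3583027 to 3586985), a hormone-like growth factor, fell most, from 19.9, 18.1 and 18.8 FPKM to 0.0622, 0.0916 and 0 FPKM (log2 change -4.25, SE 0.12, limma adjusted p = 1.93e-11). It was read by 1738 reads over the 3 libraries at 0h and 5 at 60h, while control cells kept 4.95 FPKM at 60h. The mitochondrial carrier UCP2 fell 25.7-fold, from 41.8, 43.3 and 43.3 FPKM to 1.35, 1.55 and 2.09 FPKM. The chloride channel ANO1 fell from 10.7 ± 0.372 to 0.156 ± 0.0266 FPKM (SD, n = 3). The proteoglycan ESM1 fell 8.45-fold, from 58.6 ± 3.88 to 6.94 ± 0.387 FPKM, and rose in control cells by 0.33 on the log2 scale. ANPEP, a surface aminopeptidase, fell 2.69-fold in CBP cells and rose from 16.8 to 47.5 FPKM in control cells. Genes at 5 FPKM or more in every CBP library at 0h and under 0.5 FPKM in every one at 60h numbered 5. FGF19, ANO1 and FABP4, a fatty acid carrier, are those with a symbol.

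Of the lists not yet described, atrophy and adhesion genes rose more often than they fell. Of 28 FoxO, atrophy and autophagy genes 19 rose and 6 fell, with a median of 0.47, and the muscle ubiquitin ligase TRIM63 rose 2.75-fold, from 6.65 ± 1.21 to 18.3 ± 0.599 FPKM (SD, n = 3). Of 26 integrins and adhesion genes 16 rose and 7 fell (median 0.29). ITGA3, an integrin that binds laminin, fell from 28.9, 30.0 and 29.1 FPKM to 3.54, 3.19 and 3.91 FPKM, while ITGA11, which binds collagen, rose 4.50-fold. Of 26 genes of Wnt signalling 14 rose and 6 fell (median 0.40). The secreted Wnt antagonist SFRP1 rose 16.8-fold, from 1.03, 1.10 and 1.38 FPKM to 18.8, 20.9 and 19.2 FPKM, with a difference from control cells of 0.01 (SE 0.118, limma adjusted p = 0.946).

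Other lists were split. Of 27 YAP and TEAD targets 13 rose and 10 fell (median 0.11), and the surface nucleotidase NT5E fell 4.15-fold with control cells at 25.1 and 22.9 FPKM. Of 24 p53 targets 9 rose and 12 fell (median -0.18), and MDM2, which degrades p53, fell 2.23-fold. Of 25 genes of glycolysis and hypoxia 9 rose and 13 fell (median -0.12), and the repressor BHLHE40 rose 5.59-fold. The 13 falls include the row labelled GAPDH, at 3.15 and 1.29 FPKM, whose symbol may not sit on the main gene. Of 21 genes of kinase inhibitors, D cyclins and pocket proteins, CDKN1C and CCND1 among them, 6 rose and 11 fell (median -0.11). Of 14 genes of the dystrophin complex 5 rose and 7 fell, and of 19 heat shock proteins 9 rose and 9 fell, both with a median of -0.12. The small heat shock protein HSPB8 rose 2.86-fold, from 86.5 ± 2.39 to 247 ± 13.6 FPKM (SD, n = 3). Of 26 genes of Polycomb and DNA methylation 10 rose and 8 fell (median 0.04), against 13 and 7 after median-of-ratios and 14 and 5 after TPM scaling. The Polycomb partner PHF19 fell 3.83-fold and the demethylase KDM6B rose 2.62-fold. Of 20 genes of retinoic acid and lipid carriers 8 rose and 7 fell, with a median of -0.04 whose sign turned with scaling. The receptor RARG fell 3.85-fold, from 14.7, 12.4 and 14.1 FPKM to 3.34, 4.01 and 3.35 FPKM, while control cells stayed at 12.5 and 12.4 FPKM.

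Markers of further cell types were mostly near 0. Endothelial markers (10 of 10 matched, 2 tested) summed to 5.35 to 5.86 FPKM at 0h and 4.80 to 5.17 FPKM at 60h, adipocyte markers (8 of 8 matched, 4 tested) to 12.7 to 14.6 and 4.61 to 5.51 FPKM, and tenocyte and cartilage markers (8 of 8 matched, 4 tested) to at least 9.95 FPKM at 0h and 4.91 to 5.87 FPKM at 60h. Epithelial markers (7 of 8 matched, 1 tested) summed to 1.00 to 1.18 and 0.469 to 0.526 FPKM, with EPCAM and KRT5 at 0 in all 6 CBP libraries. Neural markers (7 of 8 matched, 2 tested) summed to 3.82 to 4.23 FPKM at 0h and 15.5 to 15.7 FPKM at 60h, of which the tubulin TUBB3 made up 14.9 FPKM at 60h.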

How the data were processed

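RNA from 12 libraries of porcine muscle satellite cells (4 groups of 3) was sequenced after library construction with the VAHTS Universal V8 kit, per the labels' protocols. The authors deposited 1 table of FPKM values for 31908 genes, and the submitters' processing notes name Trimmomatic, featureCounts and the build Sscrofa11.1. How reads were aligned, which gene models were counted and whether strand was used is not given in the sources used here. The columns named NC were read as the WT samples. FPKM values were whole multiples of a per-gene step, so reads were recovered: 22521 of 22521 genes above 0 gave whole reads within 0.001. They gave library totals of 16095335 to 19155240 and served for depth, read shares and 1 alternative test.

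Genes with 1 FPKM or more in at least 3 libraries were tested on log2(FPKM + 1) with limma 3.58.1 in R 4.3.3, in 1 model of the 4 groups with Benjamini-Hochberg adjustment at 0.05. Contrasts were the stage change in CBP cells, that in control cells, and their difference. The model was also run on simulated data with far fewer changed genes than were called here, so that run does not test so wide a shift. Alternatives were median-of-ratios and TPM scaling, a pseudocount of 0.1, a mean of 5 FPKM or more, no filter, only the 6 CBP libraries, the replicate number as a block, limma voom on recovered reads, and leaving out each library.

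The members and gene lists were chosen with earlier results of these data known. Named genes were drawn from the 12 largest rises and falls, the 8 largest differences each way, the 6 largest opposite changes, genes crossing from under 0.5 to 5 FPKM or more and back, up to 5 called members of each list, and genes fixed as always shown. CDC25B, CD34, DPT, DPP4, OSR1, TCF21, CD3E, LYZ, EPCAM, KRT5 and GAPDH were named after their values were seen. Symbols came from the table for 16801 rows and from a reference list of gene names for 687, and 14420 rows have none. Where several rows shared a symbol the one with the highest mean was used. Positions came from the RefSeq gene table of Sscrofa11.1, matched by gene identifier and, where that gave none, by symbol. MYMX and IGF2 had no match and were not analysed here, and promoter sequences were not used here.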

Additional observations from a re-analysis of the deposited data

Results flagged for a closer look

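The stage change differed between the arms, by limma's test of the difference itself, with a higher value in CBP cells for 2823 genes and a lower value for 3104. Among genes that passed in both arms with opposite signs, 6 had the largest changes. FBLN2, a matrix glycoprotein, had a difference of -3.78, with a fall from 32.4 to 7.67 FPKM in CBP cells and a rise from 40.9 to 148 FPKM in control cells. The row of the microRNA gene ssc-mir-221 had a difference of -3.01, but it rests on 23 reads at 0h and 6 at 60h over the CBP libraries. ANPEP, a surface aminopeptidase, had a difference of -2.68. LOXL4, an enzyme that crosslinks collagen and elastin, had a difference of -2.49, with means of 3.82 and 1.08 FPKM in CBP cells and 7.74 and 20.3 FPKM in control cells. CYP1B1, a cytochrome P450, had a difference of 3.07 and FGFR4, a growth factor receptor, one of 2.46. All 6 were named by the size of their change, and no cause was tested.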

How the results depend on the processing

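The counts of genes called in either direction, and of genes whose stage change differed between the arms, stayed within 1.5 times under every alternative run. Limma voom on recovered reads called 3729 higher and 4852 lower. Only counts with a log2 change of at least 1 moved further: higher genes went to 888 by TPM, 888 by voom and 346 at a mean of 5 FPKM or more, and lower genes to 361 at that mean, 889 with a pseudocount of 0.1 and 928 by voom. With each library left out in turn the genes called ran from 3426 to 3613 higher and 4541 to 4663 lower, and the differences from 2586 to 2809 higher and 2885 to 2993 lower. The filter at that mean tests fewer genes, and the cause of the other shifts was not tested.

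Replicate numbers did not pair the CBP libraries by the limit of 0.1: deviations of same-numbered CBP_0h and CBP_60h libraries correlated at 0.082, 0.0156 and 0.07, each the best match of its library. Pairing within the control libraries and across the arms was not tested. The replicate block gave 3609 higher and 4778 lower genes.

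Signs turned mostly for values near 0. The fusion median was 0.11 by TPM, 0.05 by median of ratios and 0.10 at a mean of 5 FPKM or more, and -0.04 to 0.00 with a library left out. The coupling median was -0.12 at that mean and -0.02 to 0.06 with a library left out, and the insulin-like growth factor median was -0.10 at that mean. The retinoic median was 0.06 by TPM, 0.02 by median of ratios and 0.26 at that mean. CDKN1A changed by 0.05 by TPM and 0.00 by median of ratios, ID1 by 0.03 by TPM and -0.20 to 0.06 with a library left out, and ID2 by 0.01 by TPM. For the differences between arms, EP300 had 0.03 by TPM, 0.00 by median of ratios and -0.06 to 0.03 with a library left out, SFRP1 had -0.04 by median of ratios and -0.04 to 0.08, HMGCS1 -0.02 to 0.07 and JSRP1 -0.14 to 0.06. TNNT3 and TUBB3, both with levels under 1 FPKM at 0h, had differences that were not near 0. TNNT3 went from -1.01 (limma adjusted p = 3.63e-06) to 0.06 with a pseudocount of 0.1 (limma adjusted p = 0.844). By limma voom it was 2.33 (adjusted p = 0.00208), so its difference was called in opposite directions. TUBB3 went from 0.52 (limma adjusted p = 0.0043) to -0.21 with that pseudocount and -0.51 by voom. Neither of the latter passed (limma adjusted p = 0.628 and 0.303). The planned promoter motif search was not run.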

Other observations

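The same 5 rows had the highest means at both stages. COX1, the mitochondrial gene of cytochrome c oxidase subunit 1, stood at 11080 FPKM at 0h and 8972 FPKM at 60h in CBP cells, and cytoplasmic actin ACTG1 at 6435 and 3307 FPKM. The row ssc-mir-10390 was higher than both, at 20940 and 16560 FPKM.

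The row that carries the symbol GAPDH, usually among the most abundant transcripts of any cell, held only 2.83, 2.97 and 3.65 FPKM in the CBP libraries at 0h and 0.972, 1.57 and 1.34 FPKM at 60h. RHCG, an ammonium channel, reached 30.3 FPKM in control cells at 60h and 1.04 FPKM in CBP cells, after 0.652 and 0.307 FPKM at 0h. MIR1-2, the row of a muscle microRNA gene, held 0 reads over the CBP libraries at 0h and 29 at 60h.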
